A study of Felis catus with 77 samples.

Results

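The 100 genes described here were the most evenly measured transcripts of feline fibrosarcoma (FSA) and its surrounding normal tissue (NT). They were chosen by their read counts alone. The counts of each library were divided by a median-of-ratios size factor, the median over genes of a library's count relative to the geometric mean of that gene, computed on the 6527 genes with a count in every library. Of the 19587 identifiers listed, 3729 had at least 10 raw counts in all 77 libraries, and the 100 of these with the smallest coefficient of variation (CV, the SD divided by the mean) of the normalized count were taken. The choice used every library, so the CVs and tissue levels of these genes are a description and were not tested.

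The libraries came from laser-capture microdissected, formalin-fixed and paraffin-embedded tissue of 30 adult pet cats of both sexes and several breeds, taken when their primary tumors were excised. There were 30 tumor (T), 16 adipose tissue (AT), 11 connective tissue (CT) and 20 skeletal muscle (SM) libraries, and the NT libraries came from the same cats as the tumors. Per the study's methods all cats had been vaccinated, the tumors were not divided by a possible origin at an injection site, and each library comes from dissected areas of 1 tissue of 1 cat. The adipose library of cat 5 has a title that says AT and a tissue label that says tumor, and it was kept as AT.

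Genes of this kind are often called housekeeping or reference genes. They tend to serve functions that every cell needs, such as transcription, splicing, translation, protein turnover and vesicle transport, and they are used as internal standards because a measured gene can be expressed relative to them. A reference gene is useful only if its level is much the same in the tissues compared, and a gene that is steady in 1 tissue can differ widely in another. Muscle is a difficult case for such standards, since contractile and metabolic transcripts make up much of its RNA. The files give Ensembl identifiers without symbols, and 0 of the identifiers matched the reference table at hand, so genes are given by identifier, their functions and sequences are not described, and the tissue labels were not checked against markers.

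Depth differed widely, from 847003 to 19099337 counts in a library. The shallow libraries decided which genes could enter, although a looser minimum changed few of the chosen genes. With a minimum of 1 count in every library (6527 genes) the same 100 were chosen, and with 10 counts in 90% of the libraries (8284 genes) 99 of them. A stricter minimum of 50 counts in every library (961 genes) kept 74. Without the 10 libraries with the fewest counts (5952 genes) 77 were chosen again. Of the genes that missed the minimum of 10 counts, 1420 missed it in exactly 1 library, and for 596 of these that library was the SM of cat 7, for 340 the CT of cat 21, for 151 the SM of cat 11 and for 67 the tumor of cat 11. No gene missed it in 1 library alone for 37 of the libraries. The lowest raw count of any chosen gene in any library was 16, and the median over the 100 genes of their lowest count was 71.5. Intervals were not computed for single counts, and the replicate spread given throughout includes the counting error.

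The CV of the 100 genes ran from 17.5% to 25.8%, with a median of 24.02%. Over all 3729 genes it ran from 17.5% to 376%, with a median of 47.4%. The counting error expected at these depths amounted to a CV of 1.73% to 6.68% per gene, and its median share of the variance was 3.03%. This share takes reads as independent molecules, which amplified reads are not, and the rest includes all differences between tissue samples. The 100th gene, ENSFCAG00000023896, had a CV of 25.83%, and ENSFCAG00000013181 and ENSFCAG00000003741 just before it had 25.78% and 25.79%. The first 3 genes outside, ENSFCAG00000005792, ENSFCAG00000030050 and ENSFCAG00000010283, had 25.83%, 25.87% and 25.89%. The limit thus cut through a continuous series of genes and not at a gap.

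**Figure D1:**
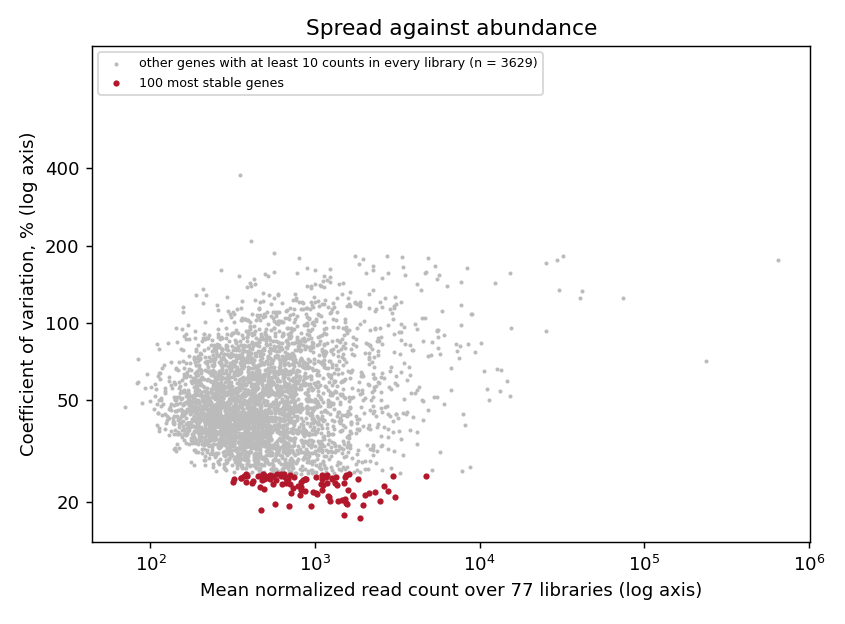
Coefficient of variation over the 77 libraries (vertical, percent, log axis) against the mean normalized read count (horizontal, log axis) for the 3729 genes that reached 10 counts in all libraries, with the 100 chosen genes in red. The chosen genes form the lower edge of the cloud at 17.5% to 25.8%, and none has a mean below 317.

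The chosen genes were well counted but not the most abundant. Their mean normalized counts ran from 317 to 4732, with a median of 857, against a median of 454 and a highest value of 647381 over all 3729 genes. A normalized count grows with transcript length, so these values rank genes by reads and not by molecules. In number of reads, 89 of the 100 lay above the median gene, 23 fell in the top 10% and none in the lowest 30%. ENSFCAG00000027765 had the highest mean, 4732 ± 1199 (SD, n = 77 libraries), and ENSFCAG00000002864 the lowest, 317 ± 76.3. None of the 50 most abundant identifiers was among them.

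ENSFCAG00000002332 had the smallest CV of the 3729 genes, 17.5%, at a mean of 1870 normalized counts. In T its lowest, median and highest values were 1205, 2046 and 2829, in AT 1470, 1852 and 2228, in CT 1429, 1841 and 2607, and in SM 1259, 1616 and 2199. The ranges of all 4 tissues overlapped, and the tissue means, from 1647 ± 234 in SM to 2043 ± 345 in T (SD), differed 1.24-fold. The tissue accounted for 23.6% of the variance of this gene, against a median of 10.3% over the 100 genes. ENSFCAG00000005002 followed with a CV of 17.9%. Its values were 939, 1482 and 1974 in T, 955, 1381 and 1700 in AT, 1201, 1663 and 2090 in CT, and 1011, 1557 and 2041 in SM. Its order of tissues was another one, with CT highest and AT lowest. ENSFCAG00000002086, the next with 18.7%, was a gene of fewer reads, with 365, 500 and 635 in T, 342, 421 and 613 in AT, 304, 420 and 647 in CT and 279, 463 and 610 in SM.

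The next 7 genes had CVs of 19.3% to 20.2%. Among them ENSFCAG00000009998 was the most counted, with a mean of 2680 ± 362 in SM, 2482 ± 383 in AT, 2427 ± 650 in T and 2301 ± 311 in CT (SD). ENSFCAG00000004814 and ENSFCAG00000002306 had the narrowest range of tissue means of the 10, both 1.14-fold, but each had a tail of low tumors. For ENSFCAG00000004814 tumors 13, 21 and 18 had 287, 412 and 450 normalized counts, against a mean of 698. For ENSFCAG00000002306 tumors 24, 13 and 29 had 360, 487 and 586, against a mean of 941. ENSFCAG00000003208 had the widest, 1.31-fold, from 1314 ± 194 in SM to 1727 ± 325 in AT. The tissue means of ENSFCAG00000009478, ENSFCAG00000030741 and ENSFCAG00000014127 differed 1.20-fold, 1.18-fold and 1.21-fold. In none of the 10 genes was the order of the tissues clear of the spread within tissues, whose ranges overlapped in every pair.

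**Figure D2:**
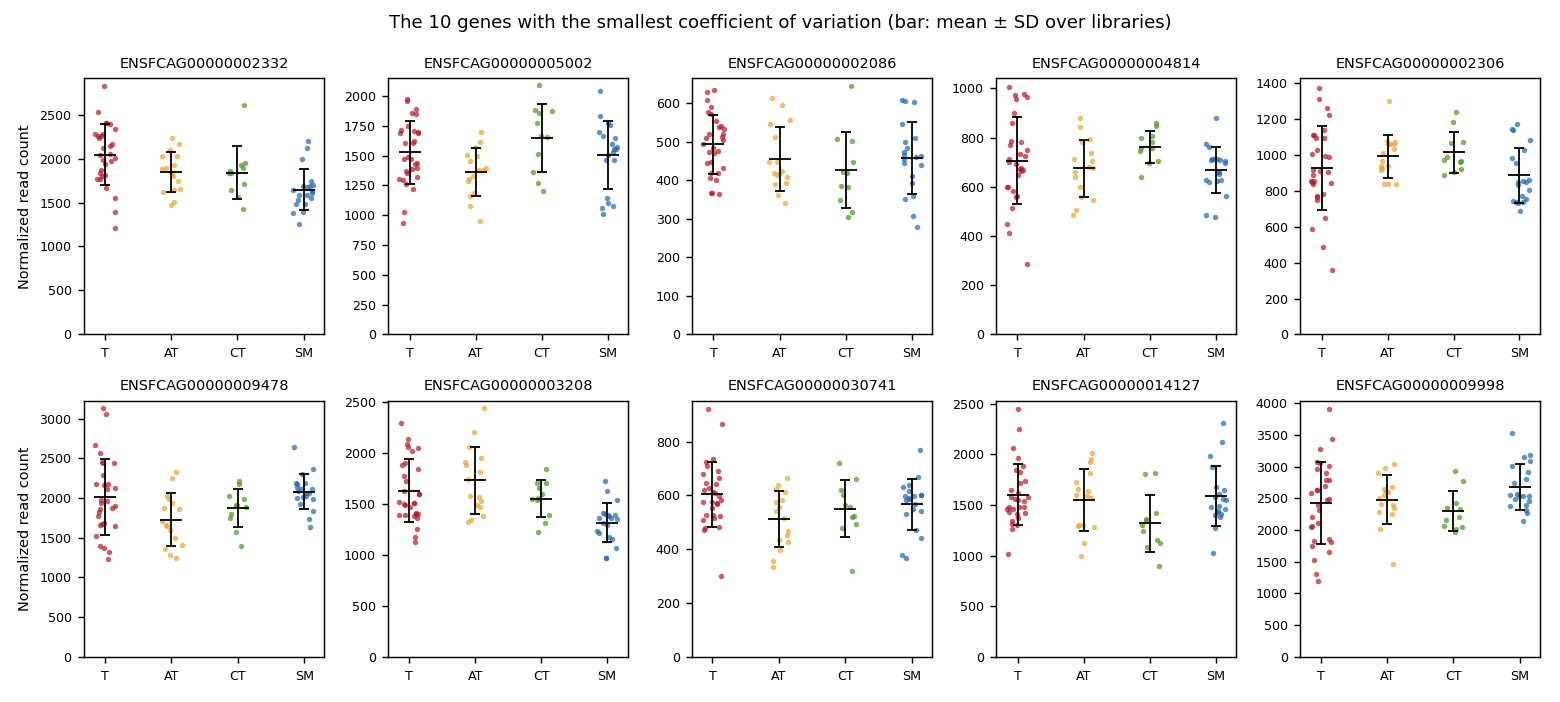
Normalized read count (vertical, from 0) in T, AT, CT and SM libraries for the 10 genes with the smallest CV. Each point is 1 library, and bars give the mean ± SD over 30, 16, 11 and 20 libraries. The points of the 4 tissues overlap in every panel, and a tail of low tumors is seen in the panels of ENSFCAG00000004814 and ENSFCAG00000002306.

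The tissue means of the 100 genes lay close together. In 99 of them every tissue mean was within 25% of the average of the 4 tissue means, which was the case for 1016 of all 3729 genes (27.2%). The highest tissue mean was 1.06 to 1.504 times the lowest, with a median of 1.22, against a median of 1.95 over all 3729 genes. T was the highest tissue in 34 genes, SM in 28, AT in 19 and CT in 19. AT was the lowest in 32, SM in 30, CT in 24 and T in 14. The tissue accounted for a median of 10.3% of the variance of a chosen gene and of 30.6% over all 3729 genes. In microdissected bulk tissue, fewer cells of a type and less RNA per cell cannot be told apart, so an even level does not show an even content per cell.

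Relative to the mean of the other 3 tissues, 26 genes departed by more than 0.25 on the log2 scale in SM, 11 in T, 8 in AT and 7 in CT. Over all 3729 genes 75.6%, 65.9%, 55.2% and 60.5% did, so SM was the most distant tissue for all genes as for the chosen ones. ENSFCAG00000027765 stood furthest above in SM, with normalized counts of 3799, 5788 and 8786 (lowest, median and highest) there, against 2620, 4720 and 6465 in T, 3371, 4219 and 6147 in AT and 2614, 3713 and 5292 in CT. Most SM libraries lay above the medians of the other tissues, but the ranges overlapped, and the log2 difference was 0.45. ENSFCAG00000004243 stood furthest below in SM, at 521, 856 and 1099, against 706, 1201 and 1861 in T, 563, 1105 and 1616 in AT and 714, 1275 and 1622 in CT, with a log2 difference of -0.47. ENSFCAG00000003233 stood furthest above in T, at 1035, 1550 and 2151, against 905, 1275 and 1918 in AT, 845, 1163 and 1509 in CT and 708, 1107 and 1397 in SM, with a log2 difference of 0.42. ENSFCAG00000030435 stood furthest below in CT, at 181, 276 and 395, against 225, 373 and 620 in T, 254, 354 and 533 in AT and 313, 404 and 612 in SM, with a log2 difference of -0.48 and tissue means that differed 1.504-fold, the widest range among the 100.

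**Figure D3:**
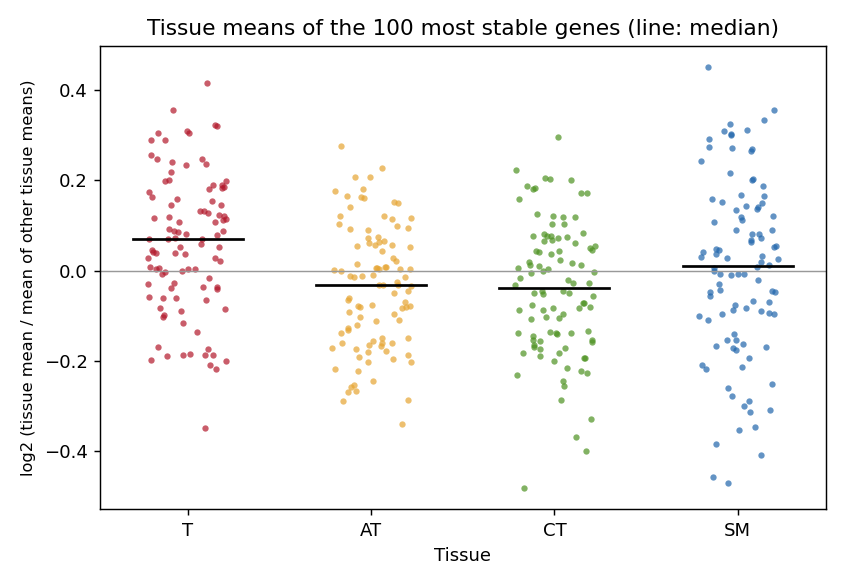
Log2 of each tissue mean over the mean of the other 3 tissue means (vertical) for the 100 chosen genes, 1 point per gene and tissue, with the median as a line. Medians lie between -0.04 in CT and 0.07 in T, and the furthest points are 0.45 in SM and -0.48 in CT.

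Within a tissue the chosen genes varied most among tumors. The median CV within T was 24.6%, against 20.6% within AT, 19.2% within CT and 19.04% within SM. Over all 3729 genes the median within T was 39.7%, and it was 32.4%, 31.9% and 32.7% within AT, CT and SM. When the 100 steadiest genes were taken within each tissue alone from the same 3729 genes, 323 genes were found in at least 1 of the 4 lists and none in all 4. Any pair of lists shared 8 to 21 genes. The chosen genes made up 34 of the T list, 18 of the AT list, 25 of the CT list and 29 of the SM list, so that 69 of them were in at least 1 list and 31 in none. Among the first 1000 of the 3729 genes in each tissue 98 of the chosen genes were found for T, 92 for AT, 79 for CT and 98 for SM. These lists came from the same libraries that chose the 100 genes, so an overlap was built in and nothing is read from its size.

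A few libraries departed more than the others, although 52 of the 77 held the highest or lowest value of at least 1 gene. The SD over the 100 genes of a library's log2 departure from the gene means had a median of 0.32, and it was 0.64 in the CT of cat 21, 0.59 in tumor 11, 0.55 in tumor 24 and at most 0.48 in the others. The CT of cat 21 held the highest or lowest value for 20 genes, tumor 24 for 17 and tumor 33 for 13. In tumor 24, 12 genes were at less than 0.5 times their mean, and in the CT of cat 21 this was seen for 11. The CT of cat 21 and tumor 11 had 863878 and 957697 total counts, among the lowest, while tumor 24 had 6976475, so 2 of these 3 libraries were shallow. The shallowest library of all, the CT of cat 13 with 847003 counts, had an SD of 0.32, at the median. The next in depth after tumor 11 were the SM of cat 7, the AT of cat 12 and the SM of cat 11. With 1043709, 1047617 and 1098607 counts, their SDs were 0.45, 0.41 and 0.43. The part of depth in the departure was not tested. In the median library 75 of the 100 genes were within 25% of their mean, and the number ran from 45 in the CT of cat 21 to 94. Only 36 genes kept within 2-fold of their mean in all 77 libraries, against 98 of all 3729. Without the CT of cat 21, tumor 11 and tumor 24, a choice made after their values were seen, 82 of the 100 genes were chosen again. In the AT library of cat 5 87 genes were within 25% of their mean, and 99 of the 100 were chosen again without it.

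Measured as a share of all counts, the same genes separated SM from the other tissues. Together they took a median of 1.04% of the counts of SM libraries (0.76% to 1.71%). The median was 2.53% for T (1.59% to 3.09%), 2.44% for AT (1.68% to 2.72%) and 2.43% for CT (2.08% to 2.69%). Of the 20 SM libraries 19 lay below every other library, and the exception, the SM of cat 30 at 1.71%, overlapped only with tumor 24 at 1.59% and the AT of cat 6 at 1.68%. The median share in T was 2.44 times that in SM. The 50 most abundant identifiers took a median of 53.4% of the counts in SM (37.1% to 60.9%), against 18.5% in T, 14.97% in CT and 12.2% in AT. With these 50 left out of the totals the median share of the chosen genes was 2.25% for SM, 2.84% for CT, 2.78% for AT and 3.13% for T, and the T to SM ratio was 1.39. The normalized counts and the shares are thus 2 views of the same data. On the scale of library totals each of the 100 genes had a lower mean in SM than over all other libraries, with a median log2 ratio of -1.21, and on the median-of-ratios scale 48 had a higher and 52 a lower mean.

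**Figure D4:**
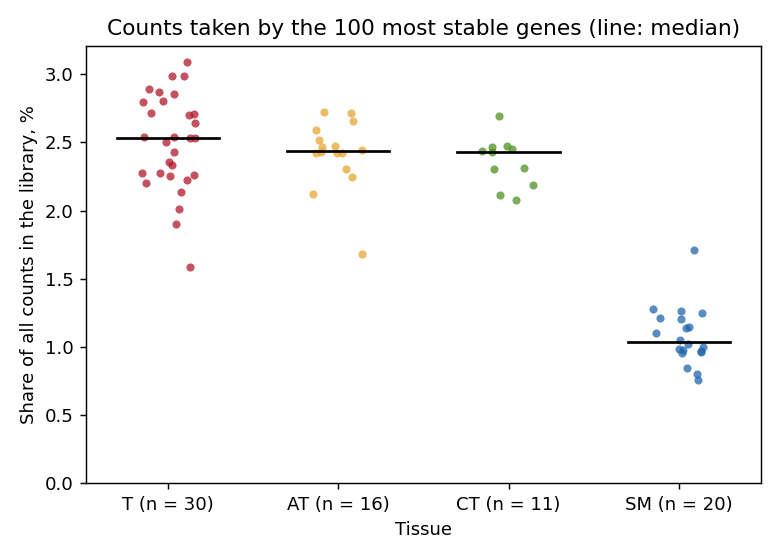
Share of all counts of a library taken by the 100 chosen genes (vertical, percent, from 0) in T, AT, CT and SM, 1 point per library and the median as a line. SM libraries lie at 0.76% to 1.71%, and all other libraries at 1.59% to 3.09%.

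Whether a gene counted as stable depended on this scale. When genes were chosen by the CV of counts divided by the library total, none of the 100 was chosen again. The 100 genes found in that way had a median CV of 29.6% on the scale of totals, and on the median-of-ratios scale all 100 were higher in SM, with a median log2 difference of 1.06. The choice was kept more closely under other size factors, with 73 genes chosen again with trimmed mean of M values (TMM) factors, the method named in the study's methods, and 79 with upper quartile factors. Leaving out SM or T changed the choice more than leaving out AT or CT, with 57, 54, 79 and 85 genes chosen again.

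The rule was also applied without 1 tissue at a time. It took its size factors and its minimum of 10 counts from the libraries of the other 3 tissues alone, and the 100 genes it gave were then measured in the left-out one with the size factors of all 77 libraries. Of the genes chosen in this way without T, AT, CT and SM, 100, 100, 99 and 100 were among the 3729. The genes chosen without AT had a median CV of 21.5% in AT, against 32.4% over all 3729 genes, and for CT the values were 21.7% against 31.9%, for SM 20.96% against 32.7% and for T 28.2% against 39.7%. The CV was thus below that of all genes in each left-out tissue, whose libraries came from the same cats as many of those that chose the genes. The level was carried over less evenly. None of the genes chosen without AT or without CT had a mean in the left-out tissue beyond 1 on the log2 scale from the mean of the other libraries, where 9.22% and 10.3% of all 3729 genes did, and none of those chosen without T did (17.2% of all genes). Of the genes chosen without SM, 10 did in SM, against 27.9% of all genes, and their log2 differences ran from -1.10 to 1.93. Beyond 0.5 lay 28 genes for SM, 10 for T, 3 for AT and 2 for CT, where 55.8%, 42.7%, 31.3% and 34.3% of all 3729 genes did, so SM stood furthest apart over all genes too. The median log2 difference of each list was small, 0.11 for T, -0.07 for AT, -0.07 for CT and 0.04 for SM. With TMM it was 0.12, -0.10, -0.09 and 0.15.

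**Figure D5:**
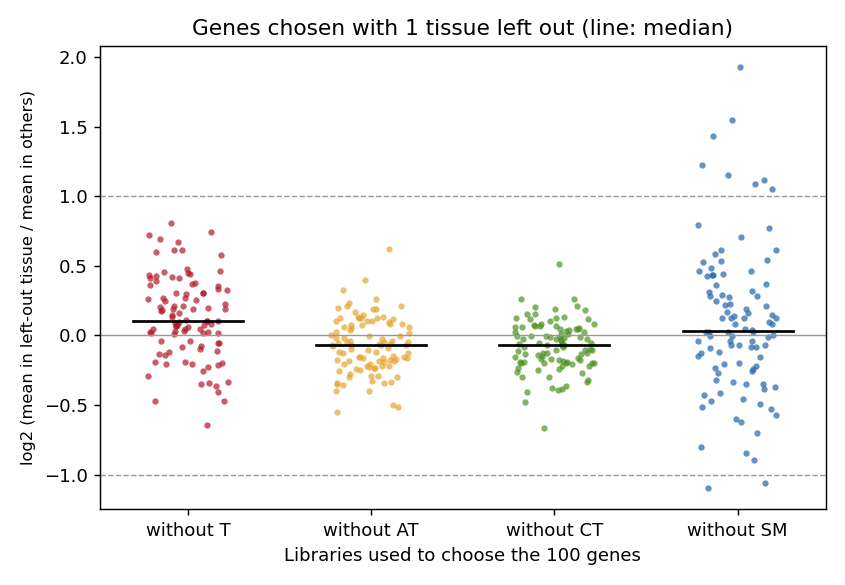
Log2 of the mean in the left-out tissue over the mean of the other libraries (vertical) for 4 lists of 100 genes, each chosen without the tissue named below it, 1 point per gene and the median as a line. Dashed lines mark -1 and 1, which only genes chosen without SM pass, 10 in number, from -1.10 to 1.93.

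Cats 11 to 17 (3 SM, 3 CT, 5 AT and 7 T libraries), set apart in an earlier examination of these data, were left out in the same way, and 77 of the 100 genes were chosen again. Their libraries were shallower, with a mean total of 4268231 counts in T against 9510612 in the other cats, 4189444 against 12355602 in SM, 1437230 against 4562410 in CT and 3014470 against 3835836 in AT, and the part of depth in the values that follow was not tested. The genes chosen without these cats had a median CV of 27.1% in their tumors, 20.8% in their SM, 13.7% in their CT and 21.7% in their AT, against 36.5%, 29.6%, 21.01% and 30.2% over all 3729 genes. Their level in each tissue of these cats was set against their mean over all libraries of the other cats, of all tissues together. The median log2 ratio was -0.06 in T, -0.19 in SM, -0.21 in CT and -0.18 in AT. Over all 3729 genes it was -0.14, -0.11, -0.30 and -0.17, so a ratio below 0 was not particular to the chosen genes. These ratios mix tissue with cat group, and a lower level in these cats than in the same tissue of the others was not tested. None lay beyond 1, where 9.71%, 16.2%, 16.4% and 6.97% of all genes did, and 5, 12, 18 and 1 lay beyond 0.5, against 32.3%, 45.1%, 46.5% and 30.5% of all genes. With TMM 0, 1, 4 and 0 lay beyond 1, against 13.7%, 18.1%, 28.6% and 10.6% of all genes, and 12, 36, 52 and 16 beyond 0.5, against 39.1%, 48.0%, 61.4% and 41.2%. The median log2 ratios were further from 0 with TMM, at -0.21 in T, -0.44 in SM, -0.52 in CT and -0.34 in AT. Over all 3729 genes they were then -0.32, -0.31, -0.62 and -0.36. The share of counts of the 100 genes in the tumors of these cats, 2.27% to 2.98%, lay inside the 1.59% to 3.09% of the other tumors. With the 50 most abundant identifiers left out of the totals, their 3 CT libraries, at 2.54% to 2.69%, lay below every other CT (2.70% to 3.17%). The AT of cats 13 and 17, at 2.40% and 2.51%, lay below the AT of the cats outside this group (2.54% to 3.12%). The AT of cats 12, 16 and 15, at 2.62%, 2.78% and 2.98%, lay inside that range. Their tumors, at 2.51% to 3.22%, lay inside the 2.17% to 3.42% of the other tumors. Their SM, at 2.14% to 2.16%, lay inside the 1.94% to 2.72% of the other SM. The median log2 departure of the 100 genes from their means was -0.18 to -0.15 in the 3 CT and -0.11 or higher in the other CT.

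Each NT was also compared with T over all genes in edgeR (quasi-likelihood test with TMM factors). A call needed a log2(FC) above 1 or below -1 and, after Benjamini-Hochberg adjustment, a p-value under 0.05. Between T and AT 19.3% of 14016 genes were called, between T and CT 15.6% of 14974 and between T and SM 41.0% of 13771. None of the 100 genes was called in any of the 3, nor with DESeq2. In edgeR without TMM, however, 83 of them were called between T and SM, where 67.2% of all genes were. An unadjusted p under 0.05 in edgeR with TMM was reached by 14, 39 and 35 of them and by 42.5%, 36.9% and 64.1% of all genes tested. The rule favours genes without such differences, so nothing is read from these numbers. Without a limit on the log2(FC), an adjusted p-value under 0.05 in edgeR was reached by 10, 26 and 32 of the 100, where 34.2%, 26.3% and 60.6% of all genes tested reached it. The fit with the cat as a block kept only cats with both tissues, 32, 22 and 40 libraries in place of 46, 41 and 50, and these numbers were 6, 3 and 30, against 35.9%, 18.9% and 61.4% of all genes. In the same libraries without the block, a fit added after the data were seen, they were 4, 4 and 29, against 32.9%, 16.6% and 59.0% of all genes. Their log2(FC) ran from -0.35 to 0.43 against AT, from -0.13 to 0.64 against CT and from -0.51 to 0.49 against SM. Of the genes chosen without the NT in question, 0, 0 and 10 were called against AT, CT and SM, and 62 against SM without TMM. An unadjusted p under 0.05 was reached in edgeR by 27, 44 and 65 of them, and DESeq2 called 0, 0 and 12, where it called 14.5%, 11.8% and 31.9% of all genes.

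In T against CT the number with an adjusted p-value under 0.05 in edgeR, 26 of 100, was near the share of all genes, and it was 11 with DESeq2 (21.2% of all genes) and 6 each with median-of-ratios factors (23.5%), without the filter on low counts (19.1%) and without cats 11 to 17 (27.8%). The median log2(FC) of the 100 was 0.26, against 0.02 for T and AT and 0.00 for T and SM. The median of all 14974 genes was 0.14. The 100 genes chosen without any CT library had a median of 0.29 in the same fit. For 30 of them the adjusted p-value of edgeR was under 0.05, near the share of all genes (26.3%). In the 22 libraries of cats with both tissues the median was 0.18 and the number 8 (16.6% of all genes), and with the cat as a block there 0.19 and 6 (18.9%). The number was 11 with median-of-ratios factors (23.5%) and 9 without the filter on low counts (19.1%). With median-of-ratios size factors the medians of the chosen genes and of those chosen without CT were 0.07 and 0.09, and without the filter on low counts they were 0.12 and 0.15. Without cats 11 to 17 they were 0.12 and 0.13.

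The 100 genes were then used as the reference set, with size factors taken as the geometric mean of their counts. Between T and CT this gave 716 genes higher and 1336 lower in T, where TMM gave 1356 higher and 976 lower and median-of-ratios factors 830 and 1231. Genes higher in T thus made up 34.9% of the calls with the reference set and 58.1% with TMM, and the median log2(FC) of all genes moved from 0.14 with TMM to -0.16. Between T and AT the reference set gave 1162 higher and 1409 lower, against 1272 and 1436 with TMM, and between T and SM 3202 and 2228, against 3324 and 2325. The direction in which most genes of T against CT were called thus differed between these factors. DESeq2 gave 966 higher and 1341 lower, and edgeR without TMM gave 734 and 1198. The study, whose methods name edgeR with TMM, also reported more genes lower than higher in T against CT, unlike the TMM fit here. The direction also turned with TMM itself, to 1004 higher and 1451 lower without the filter on low counts. In the 22 libraries of cats with both tissues 848 were higher and 652 lower, and with the cat as a block in these same libraries 812 were higher and 914 lower. In T against SM most calls were higher in T with each of these 3 factors, and in T against AT most were lower with each, although DESeq2 gave 1429 higher and 1391 lower there, and TMM without cats 11 to 17 gave 1630 and 1512. The reference set was chosen with median-of-ratios factors, so its nearness to their result is no independent check of either.

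Short lists of these genes were compared with the rest as a scale, in the same libraries that chose them. The size factor from ENSFCAG00000002332 alone differed from that of the other 99 genes with an SD of 0.23 on the log2 scale over the 77 libraries, and was higher by 0.10 in T and lower by 0.18 in SM on average. Over all 100 genes, each used alone in turn, this SD ran from 0.23 to 0.43, with a median of 0.34. With the first 3 genes it was 0.14, with the first 10 it was 0.08 against the other 90, and with the first 20 it was 0.07 against the other 80. With the first 10, the tissue means of the log2 difference lay between -0.03 in SM and 0.02 in CT, and the furthest library, tumor 33, was 0.20 away. When genes were ranked by the SD of their log2 ratios to each of the other 99, ENSFCAG00000002332 was first, and 6 of the 10 genes with the smallest CV were among the first 10. The other 99 were chosen for following the same size factors in these libraries, so this order is no separate evidence. The mean SD of the log2 ratios ran from 0.40 to 0.54 over the 100 genes.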

How the data were processed

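Libraries were grouped by tissue from the labels, and by cat from the number in the title. The deposited files hold raw whole-number counts for each Ensembl identifier, with no normalization by the authors. Per the study's methods, reads of a stranded total RNA kit were trimmed with Trimmomatic and assigned with Kallisto to Felis_catus_9.0, whereas the submitters' processing notes name STAR and featureCounts. Pseudoaligned or unique assignment treats near-identical gene copies differently, and shallow libraries limit which genes reach 10 counts.

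Size factors, CVs and held-out lists were computed with numpy 2.4.6 and pandas 2.3.3 under Python 3.11.15. T was compared with each NT in R 4.3.3 with edgeR 4.0.16 (quasi-likelihood test, TMM, filterByExpr by group, Benjamini-Hochberg adjustment) and, as an alternative, DESeq2 1.42.0. The fits were tested on simulated data for each comparison with 200 genes changed by 2 on the log2 scale, of which 89.0% (T vs AT, 15840 genes), 92.0% (T vs CT, 16565 genes) and 90.0% (T vs SM, 15773 genes) were recovered, and 0, 9 and 2 unchanged genes were called. All other genes had the same simulated mean share of counts in both tissues, with a fixed spread and no cat effect. The simulation thus does not bear on how the calls depend on the size factors.

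A shared number marks the same cat and therefore pairs the samples. The median correlation of deviations from the tissue means was 0.126, 0.118 and 0.110 within cats for AT, CT and SM, and -0.01, 0.00 and 0.00 between cats.

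The members, the gene lists and the alternatives were chosen with earlier results of these data known. Genes were named by a fixed rule: the 10 with the smallest CV, the 3 on either side of the limit, the highest and lowest mean, and those furthest above or below in a tissue, of which 4 are given. The 17 gene lists of pathways and cell types could not be used, since 0 identifiers matched the 39307 genes of the reference table. The alternatives were other size factors, count minimums and measures of spread, libraries or tissues left out, the cat as a block, DESeq2 and no filter or TMM.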

Additional observations from a re-analysis of the deposited data

How the results depend on the processing

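Of 18 alternatives, 14 kept at least 73 of the 100 genes. The other 4 kept 0 (library totals), 57 (median absolute deviation over the median in place of the CV), 54 (without T) and 57 (without SM). The median CV of the 100 genes, 24.02%, was 39.8% on library totals and 20.98% without T. With TMM the genes chosen without a tissue had a median CV of 30.7% in T, 23.9% in CT and 23.99% in SM, against 28.2%, 21.7% and 20.96%, and those chosen without cats 11 to 17 had 31.2%, 26.6%, 15.98% and 27.2% in the T, AT, CT and SM libraries of these cats, against 27.1%, 21.7%, 13.7% and 20.8%. Without TMM, 83 of the 100 genes were called between T and SM, and 62 of those chosen without SM, against 0 and 10, where 67.2% of all genes were called, and no other alternative called any of the 100. With the cat as a block, in the cats with both tissues, 0 of the 100 were called in any comparison. The number with an adjusted p-value under 0.05 between T and CT, 26, lay between 3 (cat as a block) and 27 under the alternatives, and it was 4 in the same cats without the block. Between T and AT it lay between 4 and 12, and it was 6 without the AT library of cat 5. With the reference set in place of TMM, genes higher in T against CT numbered 716 in place of 1356. With the 50 most abundant identifiers left out of the totals, the median shares were 2.25% for SM, 2.84% for CT, 2.78% for AT and 3.13% for T. The cause of these shifts was not tested. Of the 100 genes, 100 were chosen again at 1 count in every library, 99 at 10 counts in 90% of the libraries, 74 at 50 counts in every library, and 98 with the counting variance subtracted.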
